A study of Mus musculus with 6 samples.

Results

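Cpa3, Scin, Kit, Slc18a2 and Gata2 are 5 genes best known from mast cells, and all 5 were present among the 41254 gene symbols of the deposited RNA-seq table, as 12 annotated transcripts whose estimated fragments were summed per symbol. They were chosen as mast cell type genes that a high amount of GATA3 can raise in early T cell precursors, with earlier results of these same libraries known: Cpa3 and Scin had been seen higher in transgenic cells. The differences of the 5 genes between the groups are therefore a description and carry no test. The cells were DN3a thymocytes of adult C57BL/6 mice, precursors without CD4 and CD8 at the stage where the T cell receptor beta locus rearranges. Wild-type mice gave 3 libraries, and mice of the genotype Tg_Cd2_GATA3, a transgene that the series title describes as overexpression of GATA3, gave the other 3. The labels name neither the promoter fragment nor the founder line beyond that genotype name, and they do not say whether each library came from a separate animal. Without that, differences set against the spread between libraries measure these samples only, and part of the spread may be technical.

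Mast cells store proteases and amines in granules and release them when antigen links IgE on their high-affinity IgE receptor. KIT, the receptor for stem cell factor, keeps them alive, and GATA2, a zinc finger transcription factor of the same family as GATA3, is needed to form them. Early T cell precursors share KIT and several other genes with mast cells. GATA3 is required for T cell development, yet forced to a high level in early precursors with weak Notch signalling it can turn them toward mast cells. CPA3 is a zinc carboxypeptidase of mast cell granules, scinderin (the product of Scin) is a calcium-dependent actin-severing protein of the gelsolin family that acts in exocytosis, and the product of Slc18a2 is the vesicular monoamine transporter that loads amines into granules.

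The 250 bases before the annotated start are shown for the 3 members whose window holds the core letters of a GATA site, and for Kit, whose window holds none. Sequences are RefSeq windows of build GRCm38.p6, written 5′ to 3′ along the gene, and capitals mark every match to GATAA or GATAG on either strand (TTATC and CTATC are the other strand). Cpa3 lies on the minus strand (chr3:20242182-20242431), Scin on the minus strand (chr12:40134229-40134478), Slc18a2 on the plus strand (chr19:59260628-59260877) and Kit on the plus strand (chr5:75574737-75574986, whose RefSeq start lies inside the first exon of GENCODE M21).
Cpa3: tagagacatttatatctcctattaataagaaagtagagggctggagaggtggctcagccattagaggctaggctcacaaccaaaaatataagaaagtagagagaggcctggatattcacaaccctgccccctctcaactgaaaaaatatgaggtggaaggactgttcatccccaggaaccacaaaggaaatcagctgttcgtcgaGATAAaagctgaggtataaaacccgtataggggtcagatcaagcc
Scin: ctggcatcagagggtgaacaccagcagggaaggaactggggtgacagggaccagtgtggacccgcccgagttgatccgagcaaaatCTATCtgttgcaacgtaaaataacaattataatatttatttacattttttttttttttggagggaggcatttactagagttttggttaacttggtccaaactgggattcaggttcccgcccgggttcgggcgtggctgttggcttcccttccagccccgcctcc
Slc18a2: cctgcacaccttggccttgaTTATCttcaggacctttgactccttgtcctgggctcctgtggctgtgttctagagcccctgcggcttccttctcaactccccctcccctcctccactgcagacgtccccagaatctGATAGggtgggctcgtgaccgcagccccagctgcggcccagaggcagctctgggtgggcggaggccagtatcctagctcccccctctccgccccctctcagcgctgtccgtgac
Kit: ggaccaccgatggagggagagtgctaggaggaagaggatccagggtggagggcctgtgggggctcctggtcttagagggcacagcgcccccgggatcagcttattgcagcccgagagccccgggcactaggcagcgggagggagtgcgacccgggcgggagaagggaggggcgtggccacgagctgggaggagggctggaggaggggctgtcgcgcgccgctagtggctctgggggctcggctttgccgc
The Cpa3 window holds 1 match, a GATAA that begins 45 bases before the start. The Scin window holds 1, a GATAG on the other strand 164 bases before it, and the Slc18a2 window holds 2, at 230 and 114 bases. No match overlapped another. Neither of the 2 annotated Kit windows, nor either of the 2 Gata2 windows, holds these letters. Such matches are common, since 37.4% of all 32851 RefSeq windows of this length hold at least 1 (22.6% GATAA and 20.6% GATAG), and 28.6% of the 12591 windows of genes tested here do. The windows also differ in base composition, with 44.4% G and C for Cpa3, 49.2% for Scin, 64.0% for Slc18a2 and 70.8% for Kit. A match describes letters in the window and not a bound site.

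Among the 5 genes, Cpa3 and Scin were transcribed at a level above most genes of these cells, Kit at a middle level and Slc18a2 at a low one, while Gata2 was all but absent. Levels between genes are given as FPKM, fragments scaled by transcript length and library size, as the authors computed it. Wherever 3 values of a group follow each other below, they are replicates 1, 2 and 3 in that order. Wild-type means were 23.2 ± 4.20 FPKM for Cpa3, 19.8 ± 8.50 for Scin, 10.9 ± 1.52 for Kit and 1.70 ± 0.347 for Slc18a2 (SD, n = 3). Over all 6 libraries the level of Cpa3 lay above that of 76.6% of the 14653 genes tested, Scin above 71.5%, Kit above 54.9% and Slc18a2 above 28.2%. In every library the FPKM of Cpa3 was 2.004 to 2.886 times that of Kit, and Scin was 1.43 to 3.18 times Kit. Cpa3 and Scin did not keep an order: Scin was the higher in replicate 1 of each group and Cpa3 in the other 4 libraries. The low level of Slc18a2 stood apart from that of Kit in both groups.

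Cpa3 (ENSMUSG00000001865, chromosome 3, 20215620 to 20242181, minus strand, in the GENCODE M21 annotation of GRCm38, the mm10 coordinates) was covered by 1760, 1190 and 1762 fragments in wild type and by 1969, 1757 and 2236 in transgenic cells. Scaled to library size with TMM factors (CPM), the wild-type libraries stood at 38.6, 25.6 and 39.03 and the transgenic libraries at 47.2, 44.9 and 56.8. Every transgenic library lay above every wild-type one, and wild-type replicate 2 was the lowest of all. The means were 34.4 ± 7.62 and 49.6 ± 6.33 CPM (SD, n = 3 each), 1.44-fold apart. edgeR gave a log2 fold change of 0.53 ± 0.16 (SE), and a larger absolute value was found for 11.5% of all genes tested. Without wild-type replicate 2 it was 0.36, and without wild-type replicate 3 it was 0.63, the lowest and the highest over 16 alternatives. In the authors' deposited table the Cpa3 transcript had a log2 fold change of 0.59. In bulk libraries such as these, more cells with a given RNA and more of that RNA per cell cannot be told apart.

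Scin (ENSMUSG00000002565, chromosome 12, 40059769 to 40134228, minus strand) was the most uneven of the 4 members that could be tested. Wild-type libraries gave 100.99, 45.5 and 54.9 CPM, and transgenic libraries gave 119.8, 58.9 and 95.8 CPM. The groups overlapped widely, with wild-type replicate 1 above transgenic replicates 2 and 3, and the highest library held 2.63 times the lowest. The means were 67.1 ± 29.7 and 91.5 ± 30.6 CPM (SD, n = 3 each), 1.36-fold apart and closer to each other than the SD of either group. Its log2 fold change of 0.45 had a standard error of 0.30 and ran from 0.21 without transgenic replicate 1 to 0.87 without wild-type replicate 1. At least 97.3% of Scin fragments were assigned to 1 of its 2 annotated transcripts (ENSMUST00000002640) in each library.

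Slc18a2 (ENSMUSG00000025094, chromosome 19, 59260896 to 59296012, plus strand) was measured at 5.06, 6.43 and 4.83 CPM in wild type and at 7.12, 6.69 and 7.55 CPM in transgenic cells, from 218 to 299 fragments a library. Transgenic libraries lay close together and above the wild-type ones, although transgenic replicate 2 exceeded wild-type replicate 2 by little. The means were 5.44 ± 0.867 and 7.12 ± 0.426 CPM (SD, n = 3 each), 1.31-fold apart. The log2 fold change was 0.39 ± 0.17 (SE), with alternatives from 0.29 to 0.53. GENCODE M21 places an antisense gene, Gm29261, over 524 bases of Slc18a2, and no source used here says whether the counting used strand.

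Kit (ENSMUSG00000005672, chromosome 5, 75574916 to 75656722, plus strand) was detected at 66.7, 47.1 and 57.7 CPM in wild type and at 58.9, 60.8 and 72.8 CPM in transgenic cells. The groups overlapped, and only transgenic replicate 3 lay above all wild-type libraries. Means of 57.2 ± 9.85 and 64.2 ± 7.56 CPM (SD, n = 3 each) were 1.12-fold apart, with a log2 fold change of 0.17 and a standard error of 0.13. It fell to 0.05 without wild-type replicate 2 and reached 0.29 without wild-type replicate 1. Kit ligand, Kitl, had no fragment in any library.

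Gata2 (ENSMUSG00000015053, chromosome 6, 88193891 to 88207032, plus strand) had 0 fragments in all 3 wild-type libraries and in transgenic replicates 1 and 3, and 6 fragments in transgenic replicate 2, which is 0.153 CPM. A count of 0 allows up to 3 fragments, which is 0.0638 to 0.0769 CPM at the depth of these libraries, counting error only. Gata2 was the member that did not pass the filter on low counts, so 4 of 5 were fitted. The filter was applied once over all 6 libraries, and each of the 4 had 218 fragments or more in every library.

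**Figure D1:**
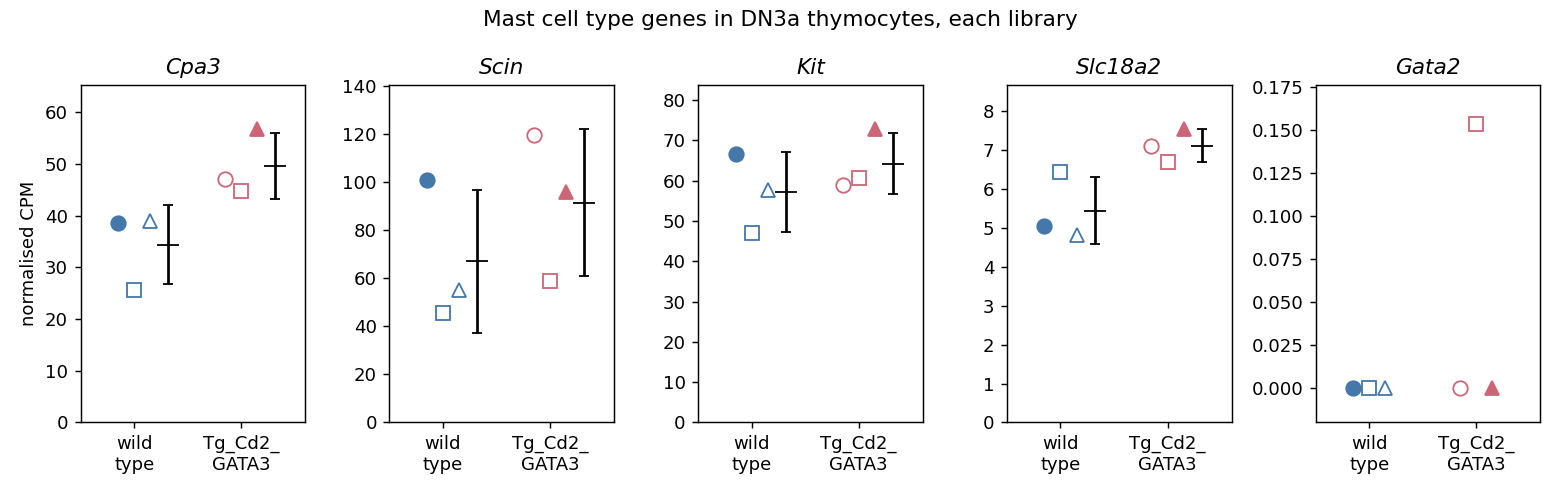
Normalised CPM (y axis, each panel with its own scale) of the 5 genes in each library of the wild-type (blue) and Tg_Cd2_GATA3 (red) groups; circles, squares and triangles are replicates 1, 2 and 3, filled symbols are libraries with RNA of Y-linked genes, and the bar shows mean and SD of 3 libraries (not drawn for Gata2). Cpa3 and Slc18a2 do not overlap between the groups, Scin and Kit do, and Gata2 is above 0 in transgenic replicate 2 alone.

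Of the 4 members fitted, the groups did not overlap for 2, Cpa3 and Slc18a2, both higher in transgenic cells. Over all genes tested the groups did not overlap, with transgenic cells higher, for 8.73% and with transgenic cells lower for 10.1%, and nothing is read from the members' count since this contrast chose them. Likewise all 4 had a log2 fold change above 0, as did 50.2% of all genes, and their median was 0.42 beside 0.001 over all genes. For scale, edgeR's quasi-likelihood test with Benjamini-Hochberg adjustment called 0.0136% of 14653 genes, 2 in all, both higher. Gata3 itself stood at 49.1, 38.2 and 43.5 CPM in wild type and at 58.6, 53.6 and 61.6 CPM in transgenic cells, and its log2 fold change of 0.41 ± 0.10 (SE) did not pass (edgeR, adjusted p = 0.17). DESeq2 called Gata3 higher. The log2 fold changes of Cpa3, Scin and Slc18a2 were 0.53, 0.45 and 0.39, with a standard error of 0.30 for Scin. Nothing is read from how close they lie to that of Gata3, since this contrast chose the members. A larger absolute value than that of Gata3 was found for 16.6% of all genes tested. Whether fragments of the transgene count toward Gata3 is not known from the labels.

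**Figure D2:**
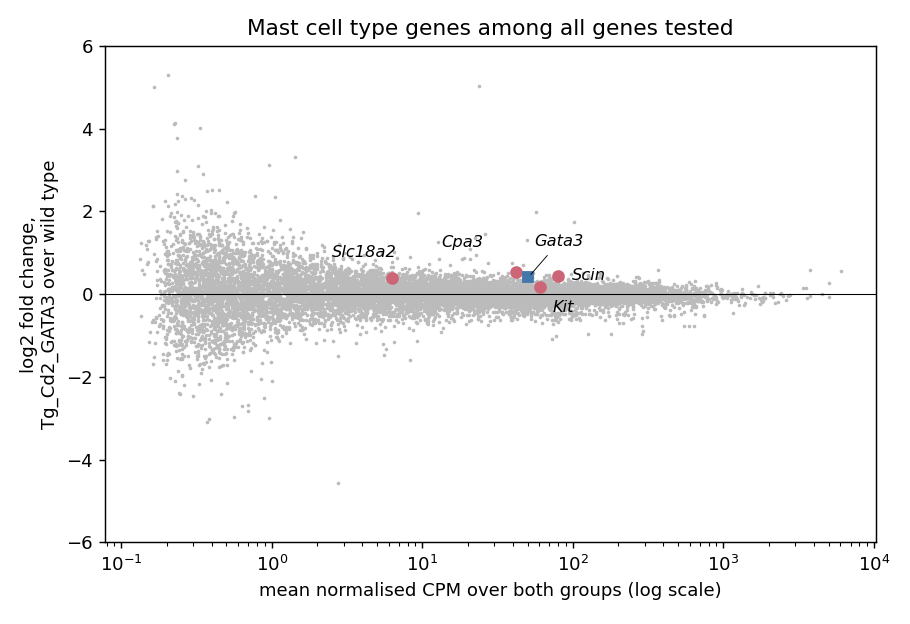
Log2 fold change of transgenic over wild type (y axis) against the mean normalised CPM of both groups (x axis, log scale) for each of the 14653 genes tested (grey), with the 4 members fitted in red and Gata3 in blue. Cpa3, Scin, Slc18a2 and Kit lie at 0.53, 0.45, 0.39 and 0.17, and Gata3 lies at 0.41.

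Wild-type replicate 1 and transgenic replicate 3 carried RNA of Y-linked genes, with 18522 and 16840 such fragments, where the remaining 4 libraries had 16 to 26. Within each kind of library Cpa3 was higher in transgenic cells, 1.47-fold in the pair with Y-linked RNA and 1.42-fold between the means of the other 2 against 2. Slc18a2 was 1.49-fold and 1.23-fold higher, and Kit 1.09-fold and 1.14-fold. Scin did not keep its direction, since the transgenic library with Y-linked RNA held 0.949 times the level of its wild-type counterpart, at 95.8 and 100.99 CPM, while the others differed 1.78-fold, at 89.4 and 50.2 CPM. With 1 library on each side, the pair with Y-linked RNA allows no estimate of error.

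The 2 full-length Kit transcripts differ at the end of exon 9 by 12 bases and at the first exon by 39 bases of the start. The 12 bases (chr5:75639147-75639158, plus strand) lie in the coding sequence and separate the isoforms known as GNNK+ and GNNK-, which differ beside the membrane on the outside of the receptor and are both made by mast cells. The end of exon 9 and the first 24 bases of the next exon, from GENCODE M21, are shown with the extra 12 bases in capitals.
ENSMUST00000005815: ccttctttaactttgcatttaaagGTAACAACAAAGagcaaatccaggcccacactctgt
ENSMUST00000144270: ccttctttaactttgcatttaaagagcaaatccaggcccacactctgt
The deposited estimates gave the long exon 9 form 68.6, 20.8 and 36.8% of Kit fragments in wild type and 12.6, 40.1 and 48.2% in transgenic cells. The short form held 31.4 to 87.0%, and the other, shorter annotated transcripts together at most 0.716%. The shares of the groups overlapped. In the authors' deposited table the long form had a log2 fold change of -0.17 and the short form of 0.41. Since the forms, of 5214 and 5241 bases, share all but these short stretches, few fragments can tell them apart, and how sharply the estimates follow the true share was not tested.

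**Figure D3:**
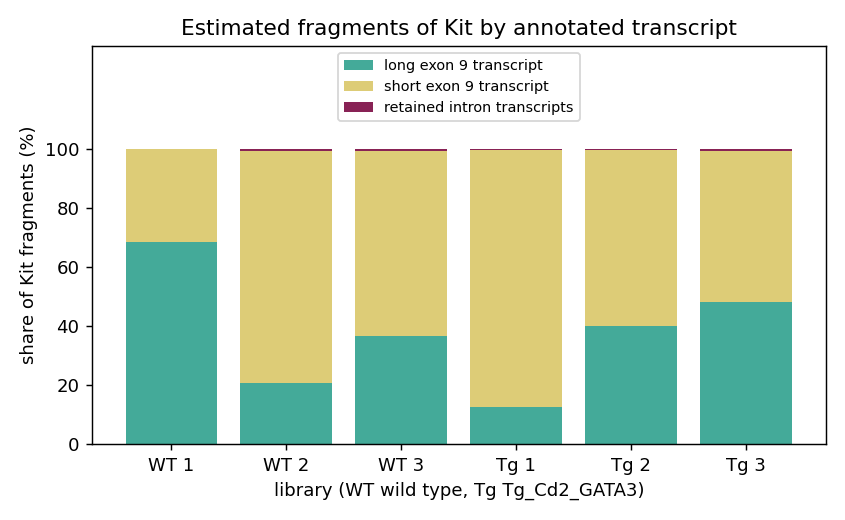
Share of the estimated Kit fragments (y axis, percent) in each library. It is split between the transcript with the long exon 9, the one with the short exon 9 and the rest. The rest are all other annotated Kit transcripts, named retained intron in the legend, a type that was not checked. The long form takes 12.6 to 68.6%, and both extremes are replicate 1 of a group.

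Most of the other mast cell genes listed stayed below 1 FPKM in both groups. The 4 lists examined held 53 other mast cell genes, of which 52 were in the table and 51 could be used (Siglecf was not found under that symbol, and Zfpm1 lies at a locus whose wild-type estimates failed). Of the 51, 19 had no fragment in any of the 6 libraries and 38 stayed below 1 FPKM in each. For scale, the whole table held 41254 symbols. With failed loci left out, 20825 of them had a fragment in some library and 11987 reached a mean of 1 FPKM. That mean is a different cut from 1 FPKM in each library, and 11 of the 51 reached it. Nothing about mast cell genes as a set is read from these counts. Granule proteases that define mast cells were among the 19: Cma1, Cma2, Mcpt1, Mcpt2, Mcpt4, Mcpt9, Tpsab1, Tpsb2 and Tpsg1, chymases and tryptases, had 0 fragments throughout. Fcer1a, the IgE-binding chain of the IgE receptor, was at 0 as well, and Ms4a2, its beta chain, had 4 fragments in transgenic replicate 2 and 0 elsewhere. Mrgprb2, a mast cell receptor for basic peptides, Enpp3, a surface marker of activated mast cells and basophils, and Alox5, the first enzyme of leukotriene synthesis, were at 0 too. Hdc, which makes histamine, was tested but low, at 0.13 to 0.68 FPKM. The genes of this paragraph were named after their values were seen. Transcripts of Cpa3 and Scin thus stood at 13.4 to 39.7 FPKM in libraries where chymase, tryptase and Fcer1a RNA was not detected at the depth reached.

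**Figure D4:**
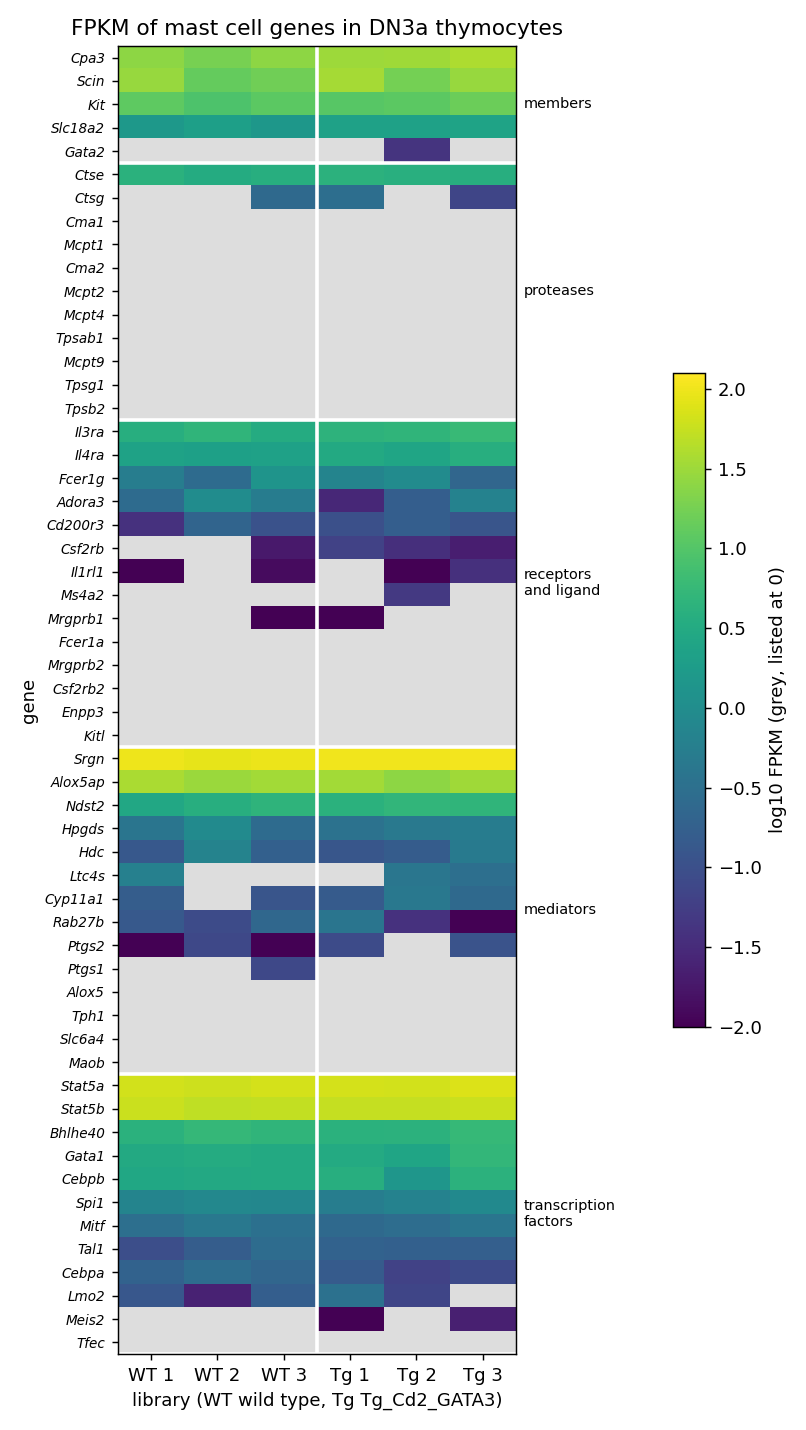
FPKM on a log10 colour scale of the 5 genes and the 51 usable genes of the mast cell lists (rows) in each library (columns); grey is a level listed at 0, and levels under 0.01 are drawn as 0.01. Chymase and tryptase genes are grey in all 6 libraries, while Cpa3, Scin and Kit are at 9.13 FPKM or more in each.

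Of the mast cell genes that were detected, none passed the test, and the most abundant, such as Srgn and Stat5a, are also used by lymphocytes. Of 23 tested, 17 had a log2 fold change above 0 and 6 below, where 50.2% of all genes were above 0. Their median was 0.10 against 0.001 over all genes. edgeR called 0, DESeq2 0 of 10 with an adjusted p and limma on log2(FPKM + 0.1) 0 of 11, and 1 had an unadjusted p under 0.05, where 5.71% of all genes were higher and 7.7% lower at that level. That gene was Il4ra, a chain of the interleukin-4 receptor, named after its value was seen, at 14.1 ± 1.11 CPM in wild type and 19.5 ± 3.13 CPM in transgenic cells (SD, n = 3 each), with a log2 fold change of 0.47 ± 0.14 (SE; edgeR adjusted p = 0.201). Over all genes limma called 0.025% higher and 0.00834% lower. The 8 with the highest level were Srgn, the core of the granule proteoglycan serglycin, the signal transducers Stat5a and Stat5b, Alox5ap, the 5-lipoxygenase activating protein, the transcription factor Bhlhe40, Il3ra, the interleukin-3 receptor alpha chain, Ndst2, which sulphates heparin, and Ctse, cathepsin E. Srgn, at 99.7 FPKM over the 6 libraries, had a log2 fold change of 0.06 ± 0.07 (SE). For Stat5a and Stat5b the values were 0.10 ± 0.06 and 0.09 ± 0.07, and for Alox5ap -0.15 ± 0.13 (SE). Il3ra and Ndst2 had values of 0.35 ± 0.21 and 0.31 ± 0.15 (SE), and Bhlhe40 and Ctse of 0.09 ± 0.13 and 0.06 ± 0.15 (SE). Mitf, the regulator of mast cell granule genes, was named after its values were seen and stayed at 0.26 to 0.43 FPKM, with a log2 fold change of -0.06 ± 0.38 (SE).

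**Figure D5:**
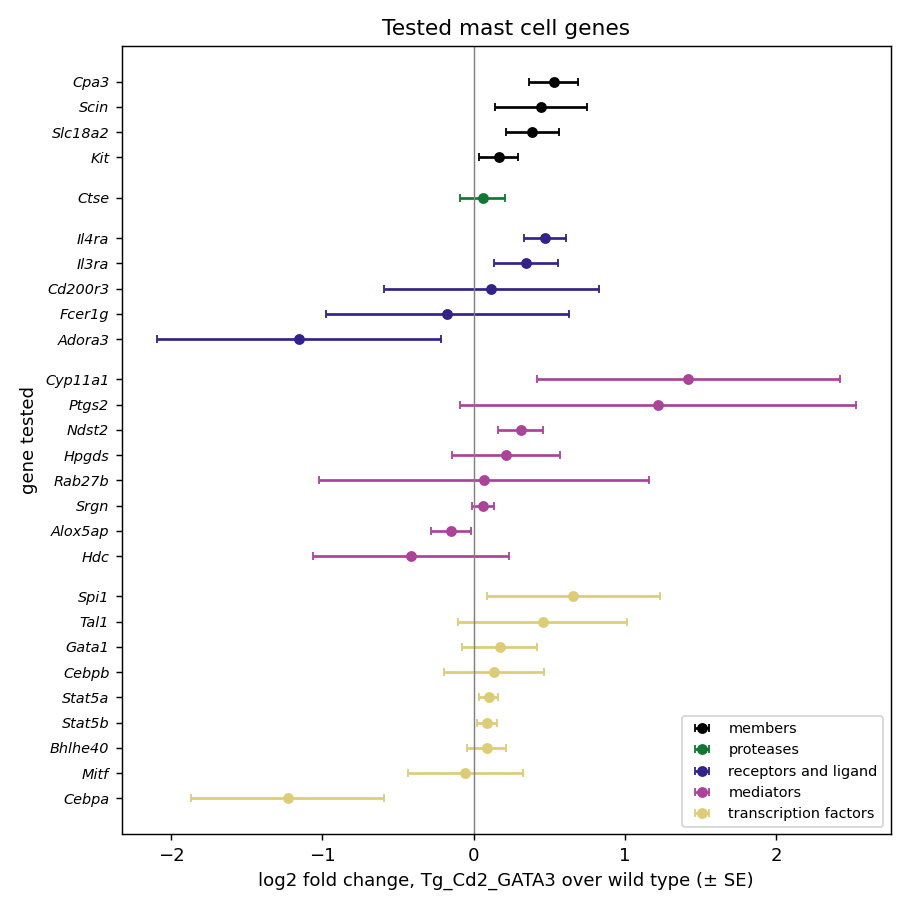
Log2 fold change of transgenic over wild type with its standard error (x axis) for the 4 members and the 23 other mast cell genes that could be tested (rows), grouped by role. Genes with long bars are those with few fragments, and none of the 23 passed the test.

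Genes that carry or restrain the signal of KIT were expressed throughout. All 20 listed reached 1 FPKM and were tested, 15 with a log2 fold change above 0 and 5 below, with a median of 0.04. Over all genes tested 50.2% were above 0. edgeR called 0 and limma 0. DESeq2 called 2 of 20 higher, Cbl and Socs1, where it called 1.5% of the genes it adjusted higher and 3.03% lower. In edgeR 4 had an unadjusted p under 0.05, each higher, where 5.71% of all genes were higher and 7.7% lower at that level. Those 4 were Socs1, an inhibitor of cytokine signalling (0.32 ± 0.09), Lyn, a Src family kinase (0.42 ± 0.13), Cbl, a ubiquitin ligase that removes activated receptors (0.22 ± 0.06), and Pik3r1, the regulatory subunit of PI 3-kinase (0.15 ± 0.05), all as log2 fold change ± SE with edgeR adjusted p from 0.193 to 0.277. They were named after their values were seen. The most abundant of the list, Plcg1, Ptpn6 and Pik3cd, a phospholipase, a phosphatase and a catalytic PI 3-kinase subunit, had values of 0.11 ± 0.07, 0.02 ± 0.06 and 0.16 ± 0.10 (SE).

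Relatives of the members were expressed to very different degrees. Among GATA factors, Gata3 was at 14.99 to 25.8 FPKM and Gata1, the GATA factor of red cells, mast cells and megakaryocytes, at 2.59 to 5.13 FPKM, with a log2 fold change of 0.17 ± 0.25 (SE), while Gata5 had 1 fragment in 1 library and Gata4 and Gata6 had none. Of 14 other metallocarboxypeptidases, Cpd alone reached 1 FPKM, with a mean of 1.28 FPKM and a log2 fold change of -0.03 ± 0.19 (SE), while Cpm and Cpxm1 had means of 0.518 and 0.428 FPKM. Slc18a1, the other monoamine transporter, and Slc18b1, a polyamine transporter, had means of 0.484 and 0.153 FPKM, and Slc18a3, the acetylcholine transporter, had no fragment. Among receptor kinases related to Kit, Pdgfrb stood at 5.89 to 10.9 FPKM, above Kit in wild-type replicate 2 and below it in the other libraries, with a log2 fold change of 0.13 ± 0.18 (SE), while Csf1r and Flt3 had means of 0.0787 and 0.0614 FPKM and Pdgfra had no fragment. The gelsolin family had other well expressed members, Flii, Svil and Capg, at means of 40.1, 20.02 and 11.7 FPKM. Their log2 fold changes were -0.09 ± 0.06, -0.04 ± 0.06 and -0.22 ± 0.21 (SE), beside 0.45 ± 0.30 for Scin. Over these families edgeR called no gene, and none but Gata3 had an unadjusted p under 0.05. DESeq2 gave an adjusted p to 2 GATA, 4 gelsolin, 1 carboxypeptidase and 1 kinase gene and called Gata3, limma tested as many and called none, and neither gave one to an SLC18 gene.

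Likeness of profile over the 6 libraries was measured as the root mean square distance between log2(CPM + 0.5) profiles, each centred on its own mean, over 12221 genes with a mean of at least 1 CPM. The gene closest to Cpa3 was Clec12a, a C-type lectin receptor, at a distance of 0.057, with mean levels of 18.6 CPM in wild type and 27.2 CPM in transgenic cells, followed by Fgd2 and Gm26672 at 0.069 and 0.070. Kit ranked 212th by distance from Cpa3, at 0.208, Slc18a2 ranked 3526th and Scin 6453rd, where the median gene lay at 0.375. Ranks depend on the gene they start from: from Scin, whose median gene lay at 0.530, Cpa3 ranked 458th at 0.380, Kit 773rd at 0.406 and Slc18a2 4499th at 0.505. From Kit the ranks of Cpa3, Slc18a2 and Scin were 4422, 8346 and 11061, and from Slc18a2 those of Kit, Cpa3 and Scin were 7199, 9460 and 11668. A gene at the same level in all 6 libraries would lie at 0.350 from Cpa3, 0.514 from Scin, 0.194 from Kit and 0.223 from Slc18a2. Scin lay farther than that from Cpa3, and every other member did from Kit and from Slc18a2. For Scin the closest genes were Vasn, C030005K06Rik and Tmem108, at 0.140, 0.168 and 0.169. Kit lay closest to Ankrd13d, Ubxn11 and BC025920, at 0.042, 0.049 and 0.052, and Slc18a2 to Lix1l, Zfp563 and A930038B10Rik, at 0.051, 0.061 and 0.066. These distances rest on 6 points per gene and serve as a description.

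Early progenitor genes, which like Kit mark the stages before DN3a, had log2 fold changes on both sides of 0. Of 16 tested of 18, 10 had a log2 fold change above 0 and 6 below, beside 50.2% of all genes above 0. Their median was 0.05, and edgeR called 0. At an unadjusted p under 0.05 in edgeR, 5.71% of all genes were higher and 7.7% lower. DESeq2 called 0 of the 8 it gave an adjusted p and limma 0 of 10. Those at an unadjusted p under 0.05 in edgeR were 1 higher and 2 lower: Bcl11a, a transcription factor of progenitors and B cells (0.53 ± 0.20), Lyl1, a bHLH factor of progenitors (-0.86 ± 0.30), and Cd34, a surface sialomucin of progenitors and mast cells (-0.84 ± 0.29), as log2 fold change ± SE with edgeR adjusted p from 0.261 to 0.287. They were named after their values were seen. The most abundant, Nfe2, Ly6a and Cd93, had values of 0.11 ± 0.12, -0.05 ± 0.21 and 0.01 ± 0.07 (SE).

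Libraries held 39022281 to 46985605 fragments. All 14 listed genes of the DN3a stage were tested, with Ptcra at 113 to 131 FPKM, Il2ra at 82.1 to 96.1 and Rag1 at 269.8 to 324. Whether they set DN3a apart from the stages beside it was not tested. Their summed level was 3210 to 3360 FPKM in wild type and 3370 to 3560 in transgenic libraries. DESeq2 called 3 of the 14 higher, Notch3, Notch1 and Bcl11b, where it called 1.5% of the genes it adjusted higher. Their log2 fold changes were 0.31 ± 0.07, 0.19 ± 0.06 and 0.26 ± 0.08 (SE), and edgeR and limma called 0 of 14. In edgeR 4 were higher at an unadjusted p under 0.05, those 3 and Hes1 (0.21 ± 0.09), and 1 lower, Il2ra (-0.17 ± 0.06, SE). Over all genes tested 5.71% were higher and 7.7% lower at that level. Of these 5 stage genes the groups overlapped for Hes1 alone. Over all genes tested the groups did not overlap for 8.73% with transgenic cells higher and for 10.1% with transgenic cells lower. Basophil and eosinophil markers, the cells nearest to mast cells, were absent for 5 of 6 genes, Mcpt8 and Prss34 among them. Their summed level was 0 to 0.0509 FPKM in wild-type and 0 to 0.111 FPKM in transgenic libraries. Some listed genes of other lineages had no fragment, Pax5, Elane, S100a8, Clec9a, Ncr1 and Eomes among them. Others of the same lists were detected. H2-Ab1 stood at 5.61 to 8.04 FPKM, Ccl25 at 2.42 to 4.86, Cd68 at 1.51 to 4.06 and Zbtb46 at 0.877 to 1.78. The sums of the B cell list (29.3 to 34.2 and 31.6 to 37.9 FPKM in wild type and transgenic), the myeloid list (15.7 to 18.3 and 17.5 to 20.1), the dendritic list (45.9 to 56.5 and 55.4 to 82.8) and the thymic epithelial list (43.4 to 46.1 and 43.6 to 51.9) came mainly from Cd79b, Lyz2, Ccr9 and Epcam. Those of the natural killer list (262 to 353 and 220 to 318) and the gamma delta list (20.7 to 25.4 and 19.6 to 23.5) came mainly from Gzma and from Sox13 and Blk. Erythroid genes summed to 1.71 to 9.37 FPKM in wild type and 5.79 to 17.4 in transgenic libraries. Their log2 fold change was above 0 for 5 of 7 tested, beside 50.2% of all genes tested, with a median of 1.06. edgeR called none of the 7 and limma none of the 2 it tested, and DESeq2 gave no erythroid gene an adjusted p. Of the dendritic list, Ccr9, also a thymocyte gene, had a log2 fold change of 0.47 ± 0.15 and Cd74 of 1.001 ± 0.36 (SE; edgeR adjusted p of 0.231 and 0.277). Some markers of double positive thymocytes, a stage later than DN3, were called by DESeq2 and not by edgeR or limma. Of 6 tested, 5 had a log2 fold change below 0, where 50.2% of all genes tested were above 0. Cd4, Cd8a and Cd8b1 had values of -0.89 ± 0.22, -1.34 ± 0.42 and -1.15 ± 0.26 (SE). DESeq2 called those 3 lower and Cd1d1 higher, where it called 3.03% of the genes it adjusted lower and 1.5% higher. edgeR called none of them (adjusted p from 0.159 to 0.221), and limma called 0 of 6. With Cd1d1, which makes up most of it, the summed level was 57.4 to 63.5 FPKM in wild type and 59.3 to 65.0 in transgenic libraries. The part of any of these cells, or of the DN3a stage genes, in the values of Cpa3, Scin, Kit and Slc18a2 was not tested.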

How the data were processed

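RNA of DN3a thymocytes was depleted of ribosomal RNA before sequencing, per the labels' protocols. TopHat2, Cuffdiff and the mm10 build are named in the submitters' processing notes; no source used here gives versions, annotation or strand. The deposited table holds, per the file headers, an estimated count of fragments and an FPKM value for each of 100144 transcripts in each library, and the authors' own log2 fold change. The authors' wild-type estimates failed (status HIDATA) for 197 genes, which were left out. A further 6 columns of rescaled fragments were not used.

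Estimated counts were added up over the transcripts of a symbol, then rounded. After filterByExpr (minimum count 10, minimum total 15) and TMM scaling, 3 against 3 libraries were tested with edgeR 4.0.16 in R 4.3.3 (quasi-likelihood, no covariate, two-sided, Benjamini-Hochberg over 14653 genes, threshold 0.05), with standard errors from the F statistic. The 16 alternatives included DESeq2 1.42.0, limma 3.58.1 on log2(FPKM + 0.1) or log2(FPKM + 0.5), a replicate block, and leaving out libraries. Members, gene lists and the naming rule were chosen with earlier results of these data known. The rule named the members, Gata3, the 8 mast cell list genes and the 3 genes of each pathway, family or stage list with the highest mean FPKM, and the 3 genes nearest each member in profile; other genes, cell type markers included, were named after their values were seen.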

Additional observations from a re-analysis of the deposited data

How the results depend on the processing

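Cpa3, Scin, Kit and Slc18a2 each had a log2 fold change above 0 in all 16 alternatives. The ranges were 0.36 to 0.63, 0.21 to 0.87, 0.05 to 0.29 and 0.29 to 0.53. Each shift was smaller than the SD between replicates, which leaving out 1 of 3 libraries can hardly exceed, so nothing is read from that. All alternatives reuse the libraries whose contrast chose these genes, so the shared sign is no independent support. Gata2 had too few fragments for a fold change. The number of genes called over the whole table, 2 in the main test, depended on the setting: 474 with DESeq2, 127 with no filter on low counts, 1 with a mean FPKM of at least 1, 4 with limma on log2(FPKM + 0.1), 256 with a covariate for Y-linked RNA, 260 without the libraries with Y-linked RNA and 92 with the failed loci kept. Leaving out 1 library gave 1 to 498, the latter without wild-type replicate 1. Libraries sharing a replicate number correlated in their deviations at 0.180, 0.139 and 0.0017, and wild-type replicate 3 correlated best with transgenic replicate 2 (0.158), so the numbers do not establish pairs. With the replicate number as a block 14 were called, and the standard error of Scin was 0.10 in place of 0.30 while its log2 fold change was 0.47. The causes were not tested, except that failed loci such as Zfpm1 enter with 0 in the wild-type libraries. The count of other mast cell genes called was 0 under all alternatives but that one, where it was 1, Zfpm1. Depth limits Gata2, Ms4a2 and the silent proteases, for which fewer than about 3 fragments a library cannot be told from none.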

Other observations

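The nearest genes on either side of each member were taken among those tested with a mean of at least 1 CPM. They were chosen after the data were seen and gave log2 fold changes from -0.20 to 0.10. Gyg and Tbl1xr1 on the sides of Cpa3, 60.3 and 1830 kb away, had -0.06 ± 0.10 and 0.07 ± 0.06 (SE). Arl4a and Ifrd1 beside Scin, 21.7 and 67.3 kb away, had 0.05 ± 0.10 and 0.10 ± 0.09 (SE). Chic2 and Srd5a3 on the sides of Kit, 530 and 484 kb away, had 0.01 ± 0.10 and -0.15 ± 0.13 (SE). Pdzd8, 1.17 kb from Slc18a2, had 0.02 ± 0.05, and Gfra1, 805 kb away on the other side of Slc18a2, -0.15 ± 0.08 (SE). The neighbours of Gata2, Rpn1 and Eefsec, 88.6 and 50.3 kb away, had -0.20 ± 0.06 and -0.07 ± 0.07 (SE). None of the 10 was called by edgeR over all genes (adjusted p from 0.193 to 0.981).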
